A study of Canis lupus familiaris with 18 samples.

Results

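The genes described here are 10 members of the transforming growth factor beta (TGF-beta) superfamily and its extracellular and membrane antagonists: the ligands TGFB1, TGFB2, TGFB3, INHBA, INHBB, BMP2 and BMP4, and the antagonists FST, GREM1 and BAMBI. They were taken by symbol, as every probe set of the canine array annotated to 1 of these genes alone, which gave 14 probe sets out of 42924 that are not array controls, and 10 of 15115 genes named on the array. RNA was measured in fat of 9 intact female beagles aged 4 years, of which 5 (dogs 2, 5, 6, 7 and 8) had eaten ad libitum and were obese and 4 (dogs 1, 3, 4 and 9) had been fed to hold their starting weight and were lean. After 24 weeks and an overnight fast, gonadal and subcutaneous fat of every dog was collected, giving 18 arrays in 4 groups. All dogs, randomized between the groups, ate Purina Pro Plan Performance Formula, so the feeding groups differ in the amount eaten.

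TGF-beta superfamily ligands are secreted dimers that bring type I and type II receptor kinases together. TGF-beta and activin receptors then phosphorylate SMAD2 and SMAD3, and BMP receptors phosphorylate SMAD1, SMAD5 and SMAD9, and these carry the signal to the nucleus with SMAD4. In adipose tissue TGF-beta is known for holding back adipocyte differentiation and for driving matrix production by stromal cells, whereas BMP2 and BMP4 are known for committing progenitors to the adipocyte lineage.

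Expression is given as the log2 values deposited with the study, on which 1 unit is a doubling, and a value of 4 was used as the floor below which the order of values was not read. A probe set was tested when at least 4 of the 18 arrays reached the floor, which left 21484 probe sets, 8 of them from 6 of the 10 genes (TGFB1, TGFB2, TGFB3, BMP2, BMP4 and FST). Differences are limma estimates ± their standard error (SE), with p-values adjusted by the Benjamini-Hochberg method over all 21484 probe sets and a threshold of 0.05. Of 11 adipocyte markers 10 were on the array, all 10 reached the floor, and their mean lay between 10.93 and 13.21 on every array. Of 13 skeletal muscle markers 12 were on the array, and their mean stood 5.58 to 7.13 above the depot median in gonadal fat of ad libitum dog 2 and subcutaneous fat of control dogs 3 and 4. Of 12 ciliated epithelium markers 11 were on the array, and their mean stood 4.25 above the depot median in gonadal fat of ad libitum dog 6 and 2.92 above it in subcutaneous fat of control dog 4, while CCDC39, DNAH9 and FOXJ1 stayed below the floor on every array. Calls lost without these 4 arrays are given with that value beside them. The labels describe only the subcutaneous arrays as having been submitted before, so the depot and an array batch cannot be told apart.

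**Figure D1:**
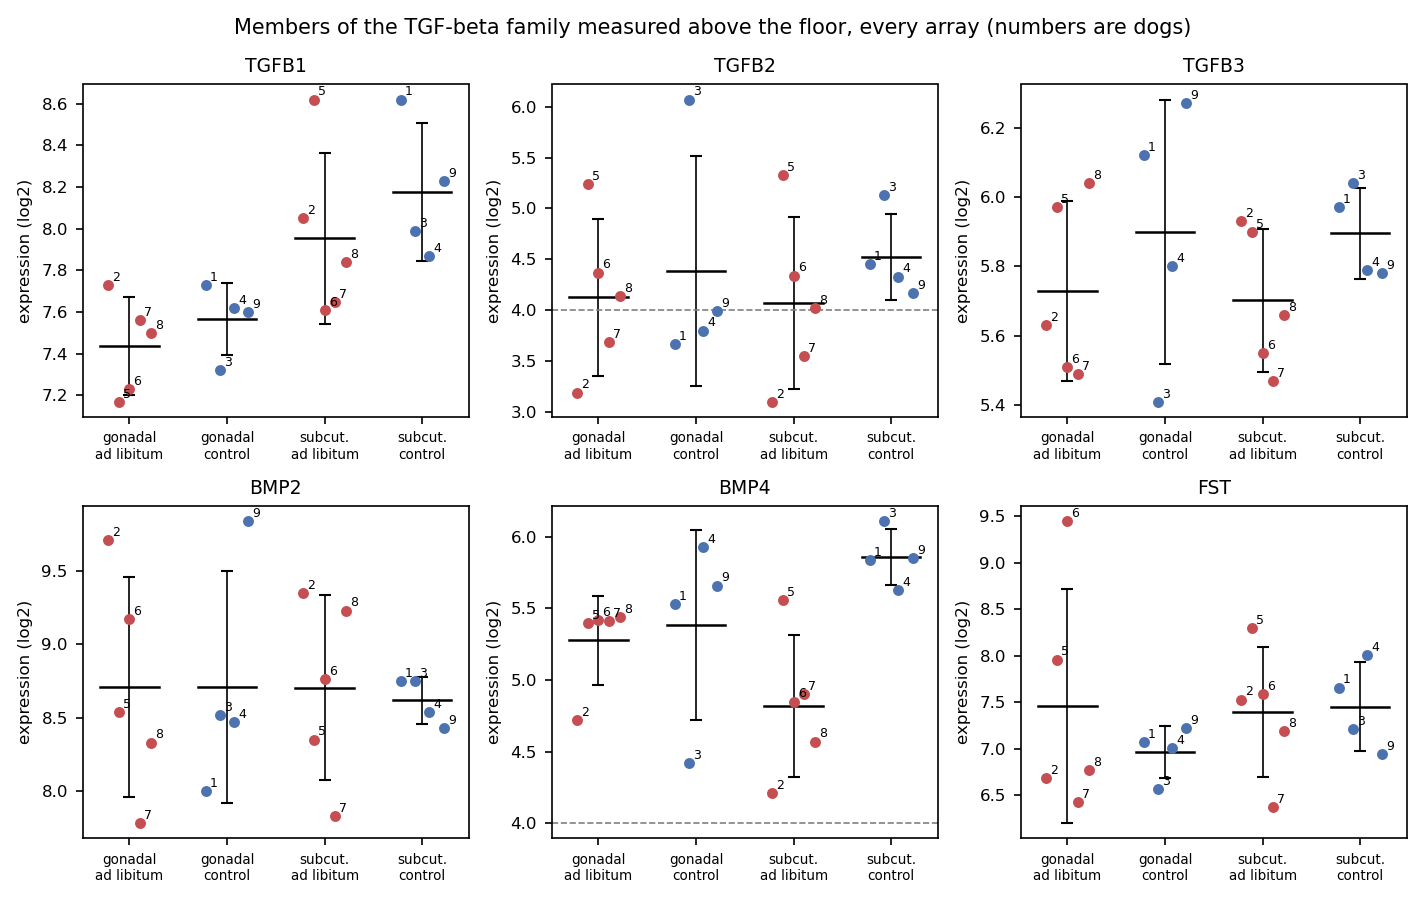
Expression (log2, y axis) of the 6 genes that were tested, in gonadal fat of ad libitum and control dogs and subcutaneous fat of ad libitum and control dogs (x axis). Each point is 1 array with the dog's number, horizontal bars are group means and error bars are SD. The dashed line is the floor of 4, and each panel has its own y axis. For BMP4 the subcutaneous points of ad libitum dogs, 4.21 to 5.56, all lie below those of control dogs, 5.63 to 6.11.

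TGFB1, the TGF-beta isoform most studied in fibrosis and immune regulation, was the only tested member called for depot. That call came only in the comparison over both feeding groups, which was added after the data had been seen. In gonadal fat it measured 7.73, 7.17, 7.23, 7.56 and 7.50 in ad libitum dogs 2, 5, 6, 7 and 8 and 7.73, 7.32, 7.62 and 7.60 in control dogs 1, 3, 4 and 9. In subcutaneous fat it measured 8.05, 8.62, 7.61, 7.65 and 7.84 in the same ad libitum dogs and 8.62, 7.99, 7.87 and 8.23 in the same control dogs. The gonadal value was the lower one in 9 of 9 dogs, by 0.09 to 1.45, and in control dogs the depots did not overlap. Of all probe sets tested 5.23% were lower in gonadal fat in every dog, and 7.57% had lower, non-overlapping gonadal values in control dogs.

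Tested within a feeding group, the difference did not pass. It was -0.52 ± 0.20 in the 5 ad libitum dogs (limma, adjusted p = 0.116) and -0.61 ± 0.22 in the 4 control dogs (limma, adjusted p = 0.132), where 7.19% and 2.92% of all probe sets passed in either direction (1545 and 627 probe sets, against 2495 and 1346 with the dog as a random block). Without dog 5 the difference in ad libitum dogs was -0.29 (adjusted p = 0.395). Averaged over both feeding groups, a comparison added after the data had been seen, TGFB1 was lower in gonadal fat by an estimate of -0.56 ± 0.15 (95% interval -0.87 to -0.25, limma, adjusted p = 0.0162), a fold of 0.68 (0.55 to 0.84). It was 1 of 6 tested member genes to pass there, where 16.6% of all tested probe sets passed in either direction and 8.84% of all tested probe sets passed as lower in gonadal fat. The count of members is near the share in either direction, so it is not read as a result about the members. The call held in the 20 alternatives run, with estimates of -0.70 to -0.45 and adjusted p of 0.00801 to 0.0477. Without the 4 arrays carrying muscle or ciliated-cell transcripts the estimate was -0.70 (adjusted p = 0.0191). For feeding TGFB1 was not called, at -0.13 ± 0.21 (95% interval -0.57 to 0.31) in gonadal and -0.22 ± 0.21 (-0.66 to 0.22) in subcutaneous fat. The subcutaneous estimate ran from -0.47 to -0.07 over the 20 alternatives, none of which passed (adjusted p of 0.158 to 0.873). The widest, -0.47, came without the 4 arrays carrying muscle or ciliated-cell transcripts.

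Macrophage, fibroblast and mesothelial markers also differed between the depots. For 9 endothelial markers gonadal minus subcutaneous was 0.01 (exact sign-flip permutation p = 0.918), and for 10 adipocyte markers it was 0.37 (p = 0.227). The mean of 12 macrophage markers was 7.24 in gonadal and 8.29 in subcutaneous fat (difference -1.05, exact sign-flip permutation p = 0.00781, two-sided, 512 sign flips), higher in gonadal fat in 1 of 9 dogs. The mean of 10 fibroblast and progenitor markers was 10.26 in gonadal and 11.31 in subcutaneous fat (difference -1.04, exact permutation p = 0.00391), higher in gonadal fat in 0 of 9 dogs. The mean of the 7 mesothelial markers on the array, 6 of which reached the floor on at least 4 arrays, was 6.82 in gonadal and 3.92 in subcutaneous fat (difference 2.90, exact permutation p = 0.00391). The subcutaneous mean lies under the floor of 4, so the size of that difference is not read. Subcutaneous fat of control dog 4, 1 of the 4 arrays carrying muscle or ciliated-cell transcripts, had a mesothelial mean of 6.65. That value lay inside the gonadal range of 5.88 to 8.1, while the other subcutaneous arrays lay between 3.33 and 3.78. Subcutaneous fat of dog 5, which had the widest TGFB1 gap between depots, also had the highest macrophage mean of the 18 arrays, 9.56. In dog 4 the macrophage mean was higher in gonadal (7.57) than in subcutaneous fat (7.39), while gonadal minus subcutaneous was -0.24 for TGFB1. The part of these cells in the TGFB1 difference was not tested, and in whole tissue fewer cells of a type and less RNA per cell cannot be told apart. The 3 genes whose centred profile over the 18 arrays lay closest to that of TGFB1 were RHOG, CCM2 and PRADC1, with mean absolute differences of 0.131, 0.161 and 0.168. As the smallest of 8649 such values they lie below the median of 0.457 by construction. This measure also favours genes of small spread, so they are not read as varying together with TGFB1.

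TGFB2, an isoform best known from developmental studies, was near the floor, reaching it on 11 of 18 arrays. In gonadal fat it measured 3.19, 5.24, 4.37, 3.69 and 4.14 in ad libitum dogs 2, 5, 6, 7 and 8 and 3.67, 6.07, 3.80 and 3.99 in control dogs 1, 3, 4 and 9. In subcutaneous fat it measured 3.10, 5.33, 4.34, 3.55 and 4.02 in the same ad libitum dogs and 4.45, 5.13, 4.33 and 4.17 in the same control dogs. The highest value of each group belonged to dog 5 or dog 3, and all groups overlapped.

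The differences between groups were within the spread. Ad libitum minus control was -0.26 ± 0.52 (95% interval -1.35 to 0.84) in gonadal and -0.45 ± 0.52 (-1.55 to 0.65) in subcutaneous fat, and gonadal minus subcutaneous, averaged over the feeding groups, was -0.04 ± 0.37 (-0.82 to 0.73). The depots of 1 dog differed by at most 0.14 in the 5 ad libitum dogs, while gonadal minus subcutaneous was -0.78, 0.94, -0.53 and -0.18 in control dogs 1, 3, 4 and 9. Over the 9 dogs the depots correlated with Pearson's r = 0.84 (exact permutation p = 0.00508, adjusted p = 0.0406 over the 8 tested member probe sets) and Spearman's rho = 0.67 (exact permutation p = 0.0589, adjusted p = 0.236). Without dogs 2 and 5, the pair farthest from the median in subcutaneous fat, r was 0.79. Dog 3, with the highest gonadal value (6.07), stayed in, so r without that dog was not examined. These values order dogs partly by expression below the floor, where order was not otherwise read, since 7 of the 18 arrays lay below it, dogs 2 and 7 in both depots, so the correlation is given as a value only. This relation was examined after the data had been seen, a feeding group has too few dogs for its own value, and 1.22% of all tested probe sets had an r at least as high, the median of all being 0.21. A second TGFB2 probe set was below the floor on all but 1 array, gonadal fat of control dog 3 at 4.25, the animal with the highest value of the first probe set.

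**Figure D2:**
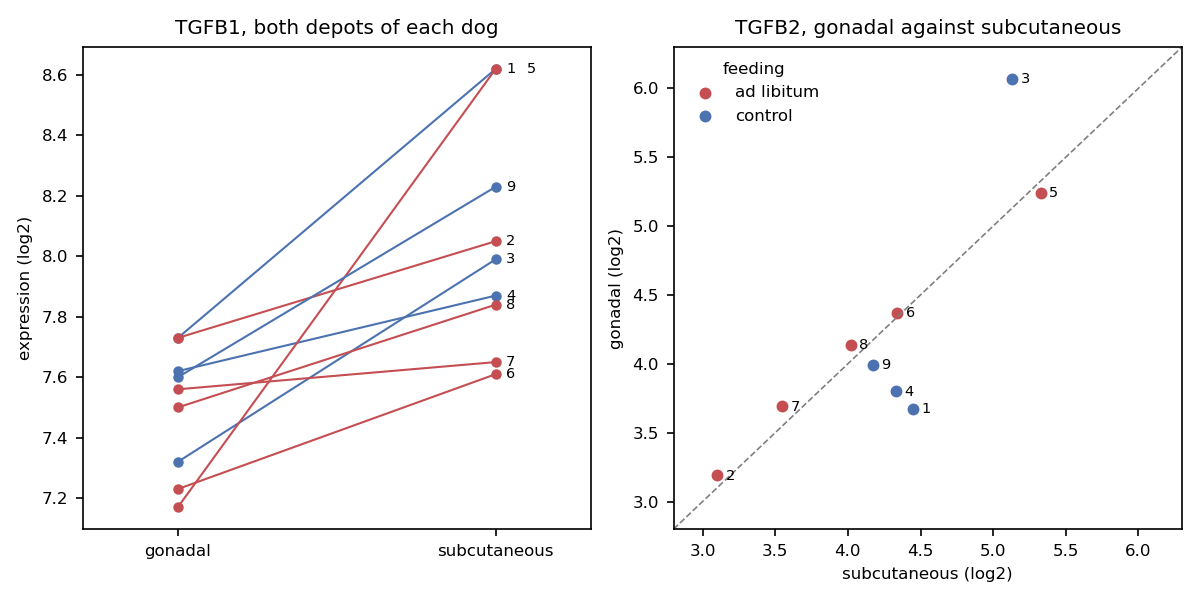
Left, TGFB1 expression (log2, y axis) in gonadal and subcutaneous fat (x axis), with a line for each of the 9 dogs and the dog's number on the right; every line is lower at the gonadal end. Right, TGFB2 in gonadal (log2, y axis) against subcutaneous fat (log2, x axis), 1 point per dog, with the dashed line marking equal values; the 5 ad libitum dogs lie within 0.14 of it.

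TGFB3, another TGF-beta isoform, varied little in its main probe set. In gonadal fat it measured 5.63, 5.97, 5.51, 5.49 and 6.04 in ad libitum dogs 2, 5, 6, 7 and 8 and 6.12, 5.41, 5.80 and 6.27 in control dogs 1, 3, 4 and 9. In subcutaneous fat it measured 5.93, 5.90, 5.55, 5.47 and 5.66 in ad libitum and 5.97, 6.04, 5.79 and 5.78 in control dogs. The whole span over 18 arrays was 0.85, and every pair of groups overlapped. The intervals were correspondingly narrow: ad libitum minus control was -0.17 ± 0.18 (95% interval -0.55 to 0.21) in gonadal and -0.19 ± 0.18 (-0.57 to 0.19) in subcutaneous fat, and gonadal minus subcutaneous, averaged over the feeding groups, was 0.02 ± 0.13 (-0.25 to 0.28). A second TGFB3 probe set gave the opposite sign for feeding, 0.36 ± 0.36 in gonadal and 0.41 ± 0.36 in subcutaneous fat, also short of the threshold. Its gonadal values in ad libitum dogs were 4.24 to 4.37 apart from dog 5 at 6.35, a high value that the main probe set did not share (5.97 on the same array). The remaining TGFB3 probe set stayed at 2.59 to 2.79 on every array.

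The activin subunits were below the floor almost everywhere. INHBA, which encodes the subunit of activin A, reached it on 1 of 18 arrays, gonadal fat of control dog 9 at 4.74, with the other arrays at 2.11 to 2.74. INHBB, the subunit of activin B that has been described in human and mouse adipocytes, reached it on none and was highest in subcutaneous fat of ad libitum dogs 2, at 3.66. At this sensitivity neither a level nor a difference could be read for them.

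BMP2, a BMP linked to progenitor commitment, was well above the floor on all 18 arrays. In gonadal fat it measured 9.71, 8.54, 9.17, 7.78 and 8.33 in ad libitum dogs 2, 5, 6, 7 and 8 and 8.00, 8.52, 8.47 and 9.84 in control dogs 1, 3, 4 and 9. In subcutaneous fat it measured 9.35, 8.35, 8.76, 7.83 and 9.23 in the same ad libitum dogs and 8.75, 8.75, 8.54 and 8.43 in the same control dogs. Ad libitum dog 7 was the lowest and ad libitum dog 2 among the highest in both depots, and the 4 subcutaneous control arrays lay closest together.

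The group means of BMP2 were 8.70 ± 0.75 (SD, n = 5) in gonadal fat of ad libitum dogs, 8.71 ± 0.79 (n = 4) in gonadal fat of control dogs, 8.71 ± 0.63 (n = 5) in subcutaneous fat of ad libitum dogs and 8.62 ± 0.16 (n = 4) in subcutaneous fat of control dogs. Ad libitum minus control was -0.01 ± 0.41 (95% interval -0.87 to 0.85) in gonadal and 0.09 ± 0.41 (-0.77 to 0.94) in subcutaneous fat. Gonadal minus subcutaneous, averaged over the feeding groups, was 0.04 ± 0.29 (-0.56 to 0.65). These intervals still allow a change of nearly 1 log2 unit in either direction for feeding. A second BMP2 probe set had Spearman's rho = 0.78 between the depots (exact permutation p = 0.0172, adjusted p = 0.138). Its r was 0.62 (exact permutation p = 0.077, adjusted p = 0.205), and 0.56 without dogs 2 and 8. Neither passed over the 8 probe sets examined. The main probe set did not share this order, with rho = 0.27 (exact permutation p = 0.493, adjusted p = 0.736). Its r was 0.39 (exact permutation p = 0.291, adjusted p = 0.466), and -0.40 without dogs 2 and 7.

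BMP4, the other BMP of progenitor commitment had the widest feeding difference of the tested members. In subcutaneous fat it measured 4.21, 5.56, 4.85, 4.90 and 4.57 in ad libitum dogs 2, 5, 6, 7 and 8, against 5.84, 6.11, 5.63 and 5.85 in control dogs 1, 3, 4 and 9. Every ad libitum dog was below every control dog, as was so for 4.37% of all probe sets tested. In gonadal fat it measured 4.72, 5.40, 5.42, 5.41 and 5.44 in the same ad libitum dogs, against 5.53, 4.42, 5.93 and 5.66 in the same control dogs, and there the groups overlapped.

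The subcutaneous difference of BMP4 was -1.04 ± 0.29 (95% interval -1.65 to -0.42, a fold of 0.49), with an unadjusted p of 0.00242 and an adjusted p of 0.0656 in limma, which misses the threshold. Of all tested probe sets 2.36% passed in this comparison in either direction, and 0.451% of all tested probe sets passed as lower in ad libitum dogs. Without dog 5, whose subcutaneous value was the ad libitum one nearest to the control dogs, BMP4 passed (-1.22, adjusted p = 0.0175). Calls rose over the whole array in that fit, to 2703 probe sets with 824 lower, from 506 with 97 lower. That pass is therefore not particular to BMP4. In the other 18 alternatives it kept its sign and did not pass, with adjusted p from 0.0596 to 0.289. Without the 4 arrays carrying muscle or ciliated-cell transcripts the estimate was -1.02 (adjusted p = 0.259). In gonadal fat the difference was -0.11 ± 0.29 (-0.72 to 0.51). The difference between the depots' feeding differences was 0.93 ± 0.41 (0.06 to 1.80, unadjusted p = 0.0372, adjusted p = 0.748) and 0.52 without dog 3 (adjusted p = 0.647), so a feeding difference limited to subcutaneous fat was not established.

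The group means of BMP4 were 5.28 ± 0.31 (SD, n = 5) in gonadal fat of ad libitum dogs, 5.39 ± 0.67 (n = 4) in gonadal fat of control dogs, 4.82 ± 0.50 (n = 5) in subcutaneous fat of ad libitum dogs and 5.86 ± 0.20 (n = 4) in subcutaneous fat of control dogs. The gonadal groups thus stood between the subcutaneous ones. No neighbours in that order passed the test, gonadal minus subcutaneous being 0.46 ± 0.27 (adjusted p = 0.329) in ad libitum and -0.47 ± 0.31 (adjusted p = 0.414) in control dogs. Without dog 3 the difference in control dogs was -0.065 (adjusted p = 0.932), and without dog 4 it was -0.73 (adjusted p = 0.353). Beside the subcutaneous values of BMP4, the fibroblast and progenitor markers averaged 11.01 in ad libitum and 11.68 in control dogs (difference -0.66, exact permutation p = 0.0794, two-sided, over all regroupings of the dogs), and the adipocyte markers 12.53 in ad libitum and 11.60 in control dogs (difference 0.93, exact permutation p = 0.111). Their part in the BMP4 values was not tested.

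**Figure D3:**
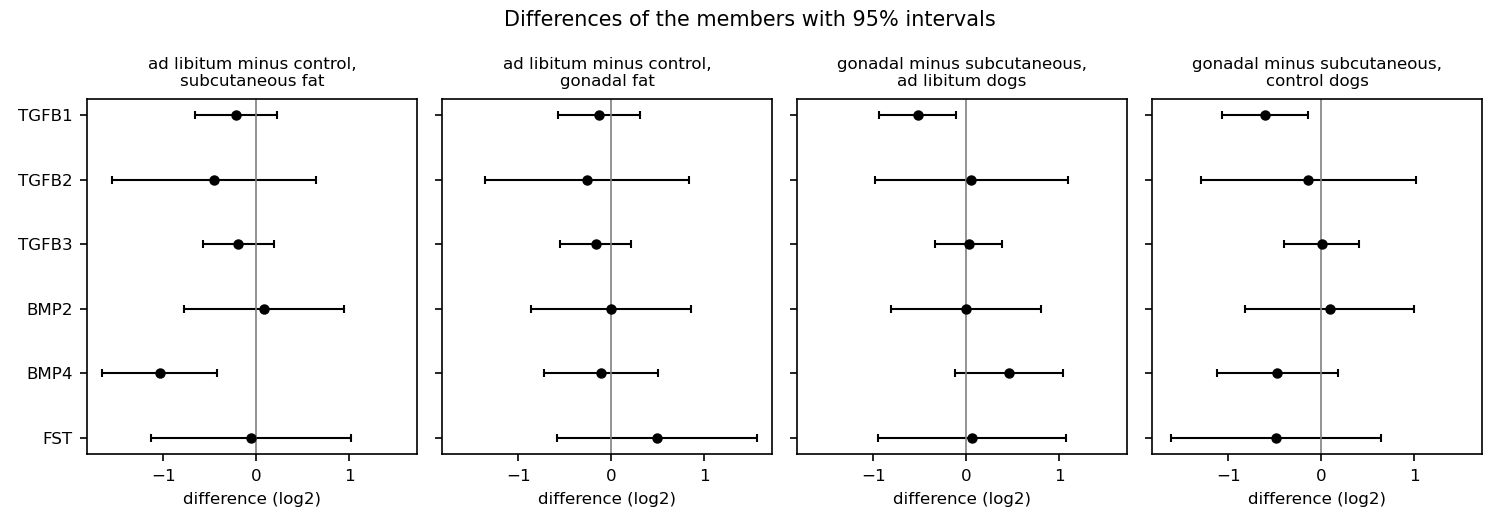
Estimated differences (log2, x axis) of the 6 tested genes (rows) with unadjusted 95% intervals from limma, for ad libitum minus control in subcutaneous and gonadal fat (5 and 4 dogs) and for gonadal minus subcutaneous in ad libitum dogs and control dogs. The interval excludes 0 for BMP4 in the first panel (-1.65 to -0.42) and for TGFB1 in both depot panels (-0.93 to -0.11 in ad libitum dogs, -1.07 to -0.14 in control dogs), and none of these passed after adjustment over all probe sets.

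FST, follistatin, which binds activins and some BMPs and keeps them from their receptors, was well above the floor and uneven among ad libitum dogs. In gonadal fat it measured 6.69, 7.96, 9.45, 6.43 and 6.77 in ad libitum dogs 2, 5, 6, 7 and 8, against 7.07, 6.57, 7.01 and 7.22 in control dogs 1, 3, 4 and 9. In subcutaneous fat it measured 7.53, 8.30, 7.59, 6.37 and 7.19 in ad libitum dogs, against 7.66, 7.21, 8.01 and 6.94 in control dogs. The highest value, in gonadal fat of dog 6, came from an array that carried ciliated-cell transcripts, and dog 7 was the lowest in both depots.

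For FST, ad libitum minus control was 0.49 ± 0.51 (95% interval -0.58 to 1.57) in gonadal and -0.06 ± 0.51 (-1.13 to 1.02) in subcutaneous fat. Gonadal minus subcutaneous was 0.06 ± 0.48 (-0.95 to 1.08) in ad libitum and -0.49 ± 0.54 (-1.62 to 0.65) in control dogs. None passed, and without dog 6 the gonadal feeding difference was -0.006.

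The other antagonists were not measured at usable levels. GREM1, gremlin, a secreted BMP antagonist described in human visceral fat, lay between 2.06 and 2.15 on all 18 arrays. BAMBI, a membrane pseudoreceptor that dampens TGF-beta and BMP signals, reached the floor on 2 arrays, both gonadal: ad libitum dog 6 at 4.39 and control dog 9 at 4.21. Its other gonadal values were 2.36 to 3.37 and its subcutaneous values 2.21 to 2.38, all under the floor, so no fold was formed. Dog 9 thus held the only INHBA value and 1 of the 2 BAMBI values at the floor, each in gonadal fat.

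Over the 6 tested member genes none was called for feeding in either depot, for depot within either feeding group or for the difference between depots in the feeding response. The median member difference was -0.12 for feeding in gonadal fat and -0.21 in subcutaneous fat, against 0.01 and 0.00 over 8650 genes. For feeding in gonadal fat and for the difference between depots no probe set passed at all in limma (0.0% of 21484), with 531 (2.47%) and 1344 (6.26%) at an unadjusted p under 0.05.

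The rest of the pathway was read from 5 lists of receptors, SMADs, other ligands, other antagonists and binding proteins, and target genes, which hold 72 genes, 43 of them tested. For feeding in subcutaneous fat 1 of the 43 was called, BMP6, higher in ad libitum dogs, against 1.97% of all genes higher and 0.347% lower. BMP6, a ligand known for inducing hepcidin in liver, measured 8.88, 7.88, 9.71, 8.44 and 8.94 in subcutaneous fat of ad libitum dogs 2, 5, 6, 7 and 8, against 7.38, 5.58, 6.97 and 6.09 in control dogs 1, 3, 4 and 9. The groups did not overlap, as was so in this direction for 5.78% of all probe sets. The difference was 2.27 ± 0.42 (limma, adjusted p = 0.021), a fold of 4.82 (2.60 to 8.92). The call was lost in 10 of 20 alternatives, with estimates of 1.96 to 2.56 throughout. These included the fit without the 4 arrays carrying muscle or ciliated-cell transcripts (2.04, adjusted p = 0.146), the planned fit that adjusts for RNA length by the first actin pair (2.08, adjusted p = 0.0678) and those without dog 1, 2, 4, 7, 8 or 9 (adjusted p of 0.0563 to 0.0814).

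The actin 3' minus 5' signal, a control for RNA length, averaged 6.67 ± 0.27 (SD, n = 5) in subcutaneous fat of ad libitum dogs and 7.08 ± 0.25 (n = 4) in that of control dogs with the first pair of control probe sets (difference -0.40, exact permutation p = 0.0714). With the second pair it averaged 0.39 ± 0.17 in ad libitum and 0.09 ± 0.70 in control dogs (difference 0.30, exact permutation p = 0.484), and with the last pair 3.49 ± 0.77 in ad libitum and 4.75 ± 1.02 in control dogs (difference -1.27, exact permutation p = 0.0873). Gonadal minus subcutaneous was -0.37 with the first, -0.32 with the second and -0.92 with the last pair (exact sign-flip permutation p = 0.0898, 0.0547 and 0.0898).

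In gonadal fat BMP6 averaged 7.56 ± 0.40 (SD, n = 5) in ad libitum and 7.13 ± 0.76 (n = 4) in control dogs. The difference between the depots' feeding differences was -1.84 ± 0.59 for BMP6 and 0.58 ± 0.22 for SMURF2, the 2 smallest p of the lists, and neither passed (both adjusted p = 0.748). No listed gene was called for feeding in gonadal fat, where SMAD1 (0.40 ± 0.20) and SKI (-0.74 ± 0.39) had the smallest p.

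Between depots the lists gave more calls. Averaged over the feeding groups, 15 of the 43 genes were called, 6 higher and 9 lower in gonadal fat (34.9% of the lists' tested genes), where 7.17% of all genes were higher and 9.7% lower. The lists were chosen with earlier results of these data known, and DCN on them is also a fibroblast and progenitor marker. The excess over all genes is therefore not read as a result about the pathway. Among receptors 1 of 8 tested was higher, among SMADs 1 of 5 was higher and 1 lower, and among other ligands 1 of 3 was lower. Of 15 tested antagonists and binding proteins 2 were higher and 2 lower, and of 12 target genes 2 were higher and 5 lower. In ad libitum dogs 4 of 43 were called, 1 higher and 3 lower, against 2.71% and 4.75% of all genes. In control dogs 6 of 43 were called, 2 higher and 4 lower, against 1.14% and 1.8% of all genes.

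SMURF2, a ubiquitin ligase that targets receptors and SMADs, was lower in gonadal fat in 9 of 9 dogs, as were 5.23% of all probe sets tested. It measured 7.73, 7.55, 8.06, 7.68 and 7.67 in gonadal and 7.93, 8.42, 8.43, 8.11 and 8.55 in subcutaneous fat of ad libitum dogs 2, 5, 6, 7 and 8. In control dogs 1, 3, 4 and 9 it measured 7.77, 7.61, 7.73 and 7.51 in gonadal and 8.85, 8.84, 8.47 and 8.98 in subcutaneous fat. These did not overlap, as was so in this direction for 7.57% of all probe sets tested. The difference was -0.84 ± 0.11 over both feeding groups (limma, adjusted p = 0.00014) and -1.13 ± 0.16 in control dogs (adjusted p = 0.00143), and both calls held in every alternative run. In ad libitum dogs it was -0.55 ± 0.15 (adjusted p = 0.0304), a call lost in 6 of 21 alternatives. It was lost without dog 5, 7 or 8 (adjusted p of 0.0831 to 0.151) and with the dog as a fixed block (0.0545). It was also lost with only the arrays of the comparison (0.0768) and with the second actin pair as covariate (0.0645).

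SMAD2, the transducer of TGF-beta and activin signals, was lower and SMAD1, a transducer of BMP signals, higher in gonadal fat of ad libitum dogs. SMAD2 averaged 7.02 ± 0.21 (SD, n = 5) in gonadal and 7.69 ± 0.31 (n = 5) in subcutaneous fat, a difference of -0.67 ± 0.18 (limma, adjusted p = 0.0313). SMAD1 averaged 7.07 ± 0.27 (n = 5) in gonadal and 6.36 ± 0.26 (n = 5) in subcutaneous fat, a difference of 0.71 ± 0.19 (adjusted p = 0.0315) in 5 of 5 dogs, as 13.2% of all probe sets were higher in every ad libitum dog. Each was lost when single ad libitum dogs were left out, SMAD2 without dog 5, 7 or 8 (adjusted p of 0.096 to 0.126) and SMAD1 without any 1 of the 5 (0.05 to 0.153), and SMAD1 was also lost with the dog as a fixed block (0.0651) and with median centring (0.0528). The SMAD2 and SMAD1 calls were also lost with only the arrays of the comparison (0.0574 and 0.0505). The same was so with the second actin pair as covariate (0.0684 and 0.0867). A second SMAD2 probe set did not pass in ad libitum dogs (-0.49 ± 0.18, adjusted p = 0.109). Over both feeding groups SMAD2 was lower in 9 of 9 dogs, as were 5.23% of all probe sets tested. That difference was -0.56 ± 0.13 (adjusted p = 0.01) and its call held in the 20 alternatives, although the second probe set did not pass there either (-0.38 ± 0.14, adjusted p = 0.0633).

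ID1, an inhibitor of differentiation that is a direct target of BMP signalling, was higher in gonadal fat in 8 of 9 dogs. It measured 7.65, 10.48, 9.55, 7.77 and 8.16 in gonadal and 7.86, 7.39, 5.89, 7.64 and 7.12 in subcutaneous fat of ad libitum dogs 2, 5, 6, 7 and 8. In control dogs 1, 3, 4 and 9 it measured 8.30, 8.47, 8.74 and 9.35 in gonadal and 5.88, 5.87, 7.98 and 5.29 in subcutaneous fat. The exception was ad libitum dog 2. For ID1, and for FSTL1 below, the share of all probe sets with 8 of 9 dogs in 1 direction was not computed. Within the ad libitum dogs alone ID1 was not called. The difference was 2.00 ± 0.43 over both feeding groups (limma, adjusted p = 0.00578, held in the 20 alternatives) and 2.46 ± 0.64 in control dogs (adjusted p = 0.0493). The call in control dogs was lost in 12 of 21 alternatives, among them those without dog 1, 2, 3, 7, 8 or 9 (adjusted p of 0.0509 to 0.178) and that with the dog as a fixed block (0.0779).

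Of the extracellular modulators, TWSG1, a BMP-binding protein that works with chordin, averaged 7.85 ± 0.49 (SD, n = 4) in gonadal and 5.99 ± 0.76 (n = 4) in subcutaneous fat of control dogs. The difference was 1.86 ± 0.46 (limma, adjusted p = 0.0398) and was lost in 13 of 21 alternatives, among them those without dog 1, 2, 3, 4, 7 or 8 (adjusted p of 0.0547 to 0.223), that with the dog as a fixed block (0.0677) and that without the 4 arrays carrying muscle or ciliated-cell transcripts (1.92, adjusted p = 0.0504). FSTL1, a secreted glycoprotein related to follistatin, averaged 11.43 ± 0.61 (n = 4) in gonadal and 13.08 ± 0.38 (n = 4) in subcutaneous fat of control dogs (-1.65 ± 0.34, adjusted p = 0.0161), a call lost without dog 3 or 9 (adjusted p of 0.116 and 0.0683) and without the 4 arrays carrying muscle or ciliated-cell transcripts (0.059). In control dogs the other FSTL1 probe sets gave -0.96 ± 0.56 and -1.12 ± 0.52 and did not pass (adjusted p = 0.356 and 0.239), each with 2 of 4 dogs higher in gonadal fat. Over both feeding groups FSTL1 was lower in gonadal fat in 8 of 9 dogs (-1.26 ± 0.23, adjusted p = 0.0019), but the other probe sets gave -0.91 ± 0.38 and -0.98 ± 0.35 and did not pass (adjusted p = 0.106 and 0.0668).

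COL1A1 and POSTN, matrix genes on the target list, were lower in gonadal fat. COL1A1, the main chain of type I collagen, averaged 12.55 ± 0.43 (SD, n = 5) in gonadal and 14.12 ± 0.71 (n = 5) in subcutaneous fat of ad libitum dogs (-1.56 ± 0.37, limma, adjusted p = 0.0186). In control dogs it averaged 12.79 ± 0.87 (n = 4) in gonadal and 14.96 ± 0.36 (n = 4) in subcutaneous fat (-2.17 ± 0.41, adjusted p = 0.0116). The call was lost without dog 7 or 8 in ad libitum dogs (0.0746 and 0.0833) and without dog 3 or 4 in control dogs (0.0848 and 0.0737). With an actin covariate it was lost in ad libitum dogs for the second pair (0.0515) and in control dogs for the last pair (0.0763). It was lost in either feeding group without the 4 arrays carrying muscle or ciliated-cell transcripts (0.0636 in ad libitum and 0.116 in control dogs), and the other COL1A1 probe sets passed in control dogs but not in ad libitum dogs (0.11 and 0.0953). Over both feeding groups all 3 COL1A1 probe sets passed, the first at -1.87 ± 0.28 (adjusted p = 0.000466).

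POSTN, periostin, a matrix protein induced by TGF-beta, was below the floor on all 9 gonadal arrays (2.58 to 2.95) and ranged from 3.04 to 9.23 in subcutaneous fat. Against the floor it was at least 7.6-fold lower in gonadal fat of control dogs (limma, adjusted p = 0.0378) and at least 3.6-fold lower over both feeding groups (adjusted p = 0.00503). POSTN passed the filter only through subcutaneous arrays, where it is high, so these p-values are not read as support for a difference. Ad libitum dogs 7 and 8 were below the floor in subcutaneous fat too (3.04 and 3.43). The call in control dogs was lost in 11 of 20 alternatives. These included the fit without a filter (adjusted p = 0.0961) and those without dog 1, 2, 3, 4, 7, 8 or 9 (0.0509 to 0.156). Without the 4 arrays carrying muscle or ciliated-cell transcripts both calls were lost (adjusted p = 0.296 in control dogs and 0.0548 over both groups). The fibroblast and progenitor markers that are lower in gonadal fat, as given beside TGFB1, move in the same direction as COL1A1, FSTL1 and POSTN, and their part in these differences was not tested.

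**Figure D4:**
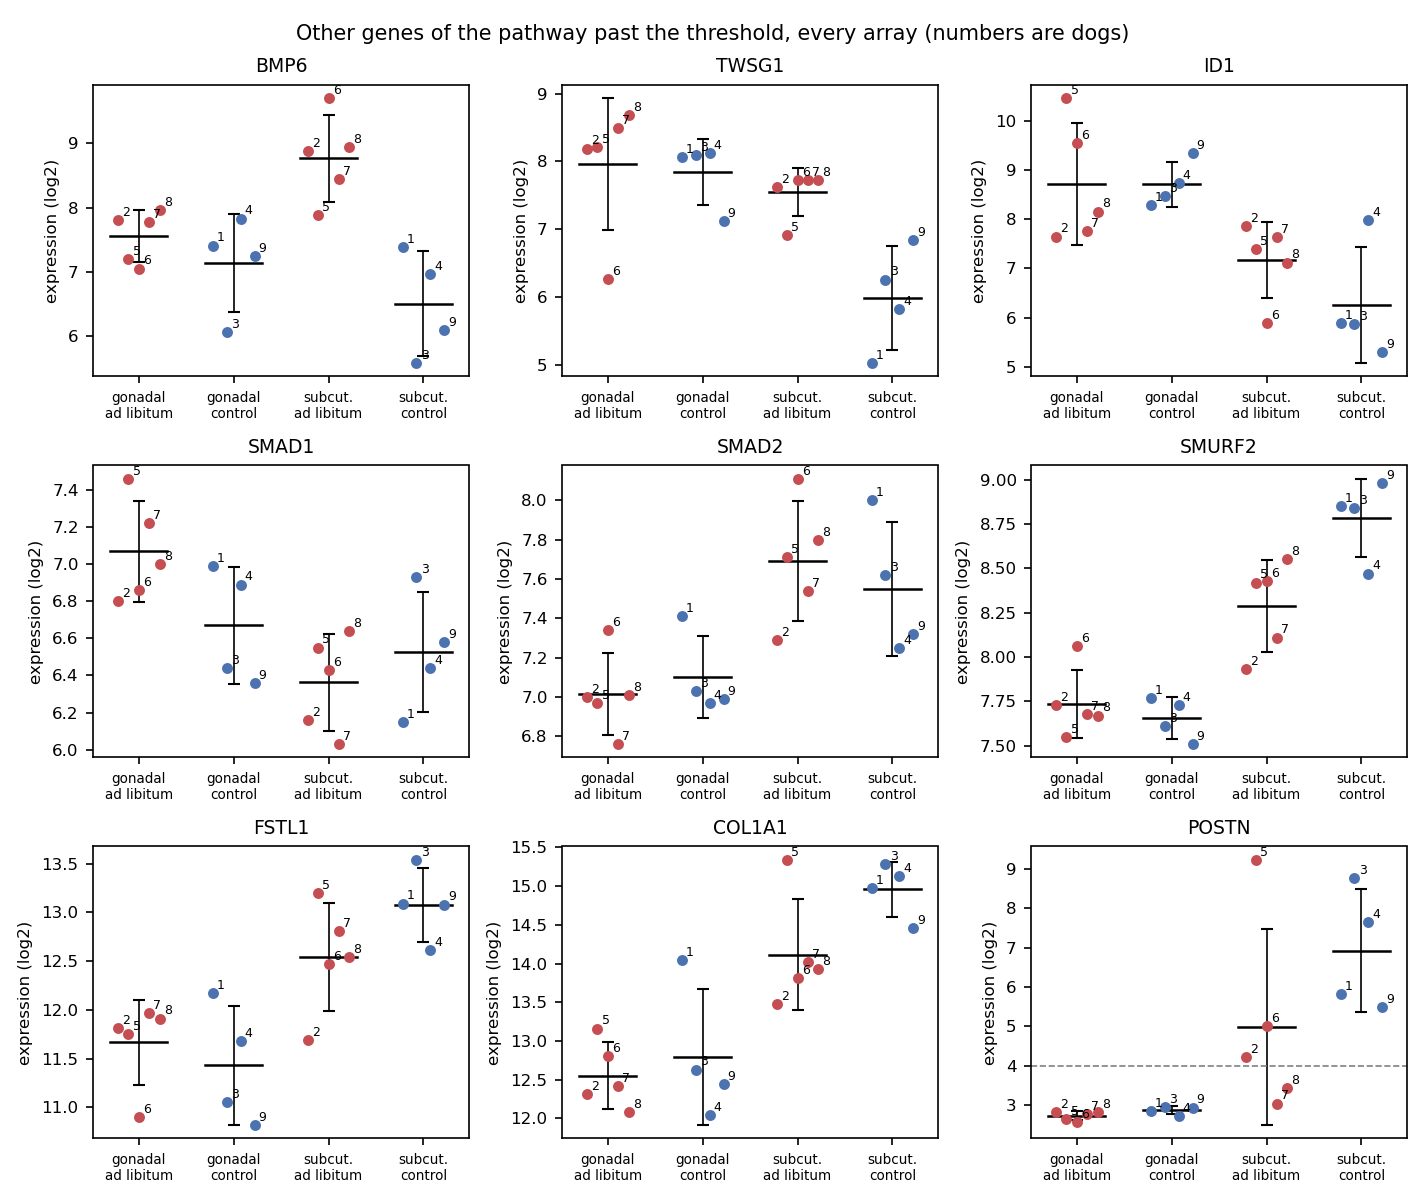
Expression (log2, y axis) of 9 other pathway genes that were called in at least 1 comparison, in gonadal fat of ad libitum and control dogs and subcutaneous fat of ad libitum and control dogs (x axis). Points are arrays with the dog's number, bars are means and error bars are SD; each panel has its own y axis, and the dashed line is the floor of 4. BMP6 in subcutaneous fat lies between 7.88 and 9.71 in ad libitum and between 5.58 and 7.38 in control dogs, and SMURF2 does not exceed 8.06 in gonadal fat.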

How the data were processed

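RNA of 18 fat samples was hybridised to a canine Affymetrix array. The authors deposited log2 values per probe set made with GCRMA, per the submitters' processing notes; the version is not given in the sources used here, and the log base was inferred from the range of 0.68 to 16.51. Array medians were 3.65 to 3.87, no arrays were identical, and the number of arrays limits the precision. Gene symbols came from the platform annotation: 29254 probe sets had 1 symbol, 439 several and 13231 none. Where a gene had several probe sets, the one with the highest mean over all arrays stood for it.

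Computed here, limma 3.58.1 (R 4.3.3) fitted 4 group means over 18 arrays without a dog block (14 residual degrees of freedom). On simulated data it called 42% of changes of 1 log2 unit for feeding in subcutaneous and 48% in gonadal fat. For depot it called 36% in ad libitum dogs, 38% in control dogs and 65% over both. For the difference between depots in the feeding response it called 20%. A member that was not called is therefore not read as unchanged. Both depots come from the same dogs by label, and the depots' deviations correlated at -0.05 to 0.53 within a dog. Other genes named are those past the threshold on the 5 lists, at most 6 per comparison by p, or the 2 smallest p. Members and lists were chosen with earlier results of these data known. Alternatives covered filters, scaling, moderation, dog blocks, the comparison's own arrays, 4 arrays with muscle or ciliated-cell transcripts, each dog left out, and the actin 3' minus 5' signal, for RNA length, as a covariate. The plan did not say which actin control probe sets to use. A first pair was run, then a second and a last one after its result had been seen, and all 3 are reported. The comparison over both feeding groups and the depot correlation were also added after the data were seen. No sequences were used here.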

Additional observations from a re-analysis of the deposited data

Results flagged for a closer look

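In 9 of the 56 combinations of member probe set and group examined, 1 array stood apart from the others by Dixon's criterion, which chance meets in about 1 group in 20. Of those above the floor, TGFB2 in gonadal fat of control dog 3 was 6.07 with the others at 3.67 to 3.99, the second TGFB3 probe set in gonadal fat of ad libitum dog 5 was 6.35 with the others at 4.24 to 4.37, and BMP4 in gonadal fat of ad libitum dog 2 was 4.72 with the others at 5.40 to 5.44. The gonadal array of dog 2 is 1 of the 4 that carried muscle or ciliated-cell transcripts. INHBA in gonadal fat of control dog 9 was 4.74 with the others at 2.11 to 2.14, and BAMBI in gonadal fat of ad libitum dog 6, another of those 4 arrays, was 4.39 with the others at 2.36 to 2.93. The remaining values were below the floor: INHBA at 2.74 in gonadal fat of ad libitum dog 8 and 2.47 in subcutaneous fat of ad libitum dog 5, INHBB at 2.93 in gonadal fat of ad libitum dog 5, and the second TGFB2 probe set at 3.83 in subcutaneous fat of ad libitum dog 5.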

How the results depend on the processing

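The TGFB1 depot call over both feeding groups held in all 20 alternatives. No alternative called another tested member except BMP4 for feeding in subcutaneous fat without dog 5, where 2703 probe sets passed. Without the filter BAMBI also passed for depot over both groups (0.93, adjusted p = 0.025), from values of which 2 of 18 reach the floor. Counts over all probe sets moved more. For feeding in subcutaneous fat (506) they were 173 without a filter, 309 with quantile normalization, 60 with only that comparison's arrays and 5 without the 4 arrays carrying muscle or ciliated-cell transcripts. The count also depended on the actin control pair: 12 with the first pair as covariate, 290 with the second and 1 with the last, the later 2 added after the first was seen. For BMP4 there these gave -0.93 (adjusted p = 0.18), -1.14 (0.0658) and -0.95 (0.289). For BMP6 the call was lost with the first (2.08, 0.0678) and last pair (2.12, 0.134) but not the second. For depot in ad libitum dogs (1545) the count was 984 with only those arrays, 902 with the second actin pair and 2495 with the dog as a random replicate block. Median centring changed its split from 608 higher and 937 lower to 506 and 1224. For depot in control dogs (627) the count was 275 without a filter, 412 with only those arrays, 153 and 199 with the first and last actin pair, 1346 with the random replicate block and 341 without the 4 arrays. With the dog as a fixed replicate block the counts were 1832 in ad libitum dogs, 821 in control dogs, 3913 over both and 0 for the difference between depots, and no member's call changed, while SMURF2 and SMAD1 in ad libitum dogs and ID1 and TWSG1 in control dogs lost theirs. Leaving out each dog gave 3 to 2703 calls for feeding in subcutaneous fat, 497 to 1620 for depot in ad libitum dogs, 143 to 1050 in control dogs, 2099 to 4209 over both and 0 to 5 for the difference between depots, with 0 to 1 members called for feeding in subcutaneous fat. The causes were not tested.

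Member differences that changed sign were all short of the threshold. With another probe set TGFB3 was 0.41 for feeding in subcutaneous and 0.36 in gonadal fat and -0.051 for the difference between depots, and BMP2 0.15 for feeding in gonadal fat. Without the 4 arrays FST was 0.10 for feeding in subcutaneous fat, -0.34 for depot in ad libitum dogs and -0.012 for the difference between depots, BMP4 0.031 for feeding in gonadal fat and 0.07 for depot over both groups, TGFB2 0.075 for depot in control dogs and 0.18 over both, and BMP2 -0.19 over both. Quantile normalization gave, for depot in ad libitum dogs, TGFB2 -0.04, TGFB3 -0.061 and BMP2 0.011, and TGFB3 -0.036 in control dogs, -0.049 over both and -0.026 for the difference between depots. Median centring gave TGFB2 -0.01, TGFB3 -0.038 and FST -0.002 in ad libitum dogs, and TGFB3 -0.009 over both and -0.058 for the difference between depots. The first actin pair gave FST 0.24 for feeding in subcutaneous fat, BMP2 0.028 for depot in ad libitum dogs, TGFB2 0.37, TGFB3 -0.022 and FST 0.079 in control dogs, TGFB2 0.23, BMP4 0.10 and FST 0.093 over both, and TGFB2 -0.27 for the difference between depots. The second gave TGFB2 -0.028 in ad libitum dogs and BMP2 -0.084 and BMP4 0.097 over both. The last gave FST 0.57 for feeding in subcutaneous fat, BMP2 0.023 in ad libitum dogs, TGFB2 0.30, TGFB3 -0.10 and FST 0.43 in control dogs, TGFB2 0.20, TGFB3 -0.04, BMP4 0.062 and FST 0.29 over both, and TGFB2 -0.20 and FST -0.28 for the difference between depots.

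Leaving out each dog, sign changes lay within these ranges. BMP2 was -0.10 to 0.22 for depot in ad libitum dogs, -0.35 to 0.37 in control dogs, -0.18 to 0.18 over both, -0.37 to 0.35 for the difference between depots, -0.26 to 0.37 for feeding in gonadal and -0.076 to 0.30 in subcutaneous fat. BMP4 was -0.14 to 0.20 for depot over both and -0.43 to 0.075 for feeding in gonadal fat. FST was -0.38 to 0.29 for depot in ad libitum dogs, -0.006 to 0.75 for feeding in gonadal and -0.28 to 0.20 in subcutaneous fat. TGFB1 was -0.02 to 0.32 for the difference between depots. TGFB2 was -0.50 to 0.077 for depot in control dogs, -0.22 to 0.066 over both, -0.021 to 0.55 for the difference between depots and -0.54 to 0.30 for feeding in gonadal fat. TGFB3 was -0.06 to 0.11 for depot in ad libitum dogs, -0.16 to 0.21 in control dogs, -0.065 to 0.12 over both and -0.18 to 0.19 for the difference between depots.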
